A study of Mus musculus with 10 samples.

Results

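Control supporting cells of the murine utricle were compared between day 10 and day 5 of culture without a Lats inhibitor, with each library's condition read from the name under which its table was deposited. By that rule 2 of the 10 libraries of the series belong to controls at day 10 and 3 to controls at day 5. The 2 libraries carry another condition in their sample labels, where they are replicates 1 and 2 of cells given TRULI, a Lats-kinase inhibitor, at 10 μM in 0.1% DMSO for 5 days. The 3 day-5 controls, kept for 5 days in 0.1% DMSO, have the same condition in label and name. Name and label disagree in this way for 4 of the 10 libraries, and which of them is right was not tested. The 2 libraries are therefore called the day-10-named libraries throughout, and the same question asked by sample label is given beside them: there the controls at day 10 are 2 other libraries, labelled as 5 days in DMSO and 5 days of recovery but deposited under names for TRULI at day 5.

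All 5 libraries were prepared from utricles explanted from Lfng-EGFP mice at P21, the postnatal age in days. In these mice a green fluorescent reporter driven by Lfng regulatory sequence marks supporting cells, and EGFP-positive cells were sorted after culture. A gate of this kind can also hold other cells with reporter signal, and it depends on the reporter being on at the time of the sort. The mouse strain, the number of animals in each library and a preparation batch are not given in the sources used here. If the deposited names are right, the groups differ in time in culture without a Lats inhibitor, together with whatever else differed between the days' libraries. If the labels are right, they differ in TRULI against DMSO at the same day.

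The utricle is a vestibular organ whose sensory epithelium holds mechanosensory hair cells, each surrounded by supporting cells. Supporting cells secrete the extracellular matrices over the epithelium, buffer potassium, form the tight junctions of its surface and express components of Notch signalling, in which Lfng modifies Notch receptors and Hes5 is a classic transcriptional target. In explant culture the cells lose their normal ionic environment and are exposed to growth factors in the medium. Immediate-early genes, such as those of the AP-1 family, respond within minutes to dissociation and sorting in many tissues.

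Upstream DNA of 4 genes on which the results below turn is shown first, each as the 250 bases before the RefSeq start in GRCm38.p6, written 5′ to 3′ on the gene's strand. In the windows of Hes5 (chr4:154960673-154960922, + strand) and Lfng (chr5:140607091-140607340, + strand), both called lower, capitals mark TGGGAA, the core of sites bound by the Notch effector Rbpj, on either strand.
Hes5: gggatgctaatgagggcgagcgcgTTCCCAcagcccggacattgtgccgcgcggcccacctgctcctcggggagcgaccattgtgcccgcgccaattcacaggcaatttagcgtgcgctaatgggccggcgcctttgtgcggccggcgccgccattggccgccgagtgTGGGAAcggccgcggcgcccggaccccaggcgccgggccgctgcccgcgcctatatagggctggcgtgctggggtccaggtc
Lfng: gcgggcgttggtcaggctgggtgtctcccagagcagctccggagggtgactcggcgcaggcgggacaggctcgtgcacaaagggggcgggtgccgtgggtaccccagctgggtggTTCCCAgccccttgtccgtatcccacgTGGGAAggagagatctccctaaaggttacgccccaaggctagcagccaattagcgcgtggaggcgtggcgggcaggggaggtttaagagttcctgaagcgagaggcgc
Each of the 2 windows held 2 matches, and 21.6% of 32851 promoter windows of this length held at least 1. The share with at least 2 was not computed. In the windows of the metallothionein genes Mt1 (chr8:94178839-94179088, + strand) and Mt2 (chr8:94172368-94172617, + strand), both called higher, capitals mark TGCACNC or TGCGCNC, the core of metal response elements, on either strand.
Mt1: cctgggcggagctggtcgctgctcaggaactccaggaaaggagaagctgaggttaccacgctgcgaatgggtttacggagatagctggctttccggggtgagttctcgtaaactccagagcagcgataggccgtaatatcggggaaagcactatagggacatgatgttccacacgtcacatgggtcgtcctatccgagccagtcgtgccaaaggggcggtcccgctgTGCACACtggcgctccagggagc
Mt2: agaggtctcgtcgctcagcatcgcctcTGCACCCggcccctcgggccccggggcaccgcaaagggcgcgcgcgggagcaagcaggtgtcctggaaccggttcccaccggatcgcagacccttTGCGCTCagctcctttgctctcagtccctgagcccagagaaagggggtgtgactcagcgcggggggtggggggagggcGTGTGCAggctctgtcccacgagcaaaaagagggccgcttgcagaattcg
The Mt1 window held 1 match and the Mt2 window 3, while 21.4% of the windows held at least 1 and 1.26% held 3 or more. A match is a description of the letters and not evidence of a bound site.

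Each table holds expected counts, estimates of the reads from each gene that need not be whole. They summed to 2463872, 3411616 and 3852501 counts in the day-5 controls and to 6255149 and 3115752 counts in the day-10-named libraries. Chromosome M took 18.1%, 28.2% and 17.5% of the counts in the controls and 2.7% and 3.51% in the day-10-named libraries, so it was left out of the totals. The other libraries fell in the same 2 ranges, from 14.2% to 25.4% in the 3 libraries named TRULI at day 5 and 2.09% and 3.52% in the 2 named TRULI at day 10. Named day and mitochondrial share thus ran together in all 10 libraries. By label, the 3 libraries of cells given TRULI for 5 days held 2.7%, 3.51% and 19.9%. By name, a separate preparation and the time in culture cannot be told apart from these files. What lay behind the mitochondrial shares was not tested. Across 8712 genes, Pearson's r of log2(CPM + 1) was 0.92 to 0.945 between the 3 controls and 0.875 between the 2 day-10-named libraries. Replicate 1 of the latter correlated at 0.793 to 0.848 with the controls and replicate 2 at 0.682 to 0.73. Here CPM is the count per 1000000 nuclear protein-coding counts, scaled by TMM over the 10 libraries, and genes within a library are not independent replicates.

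**Figure D1:**
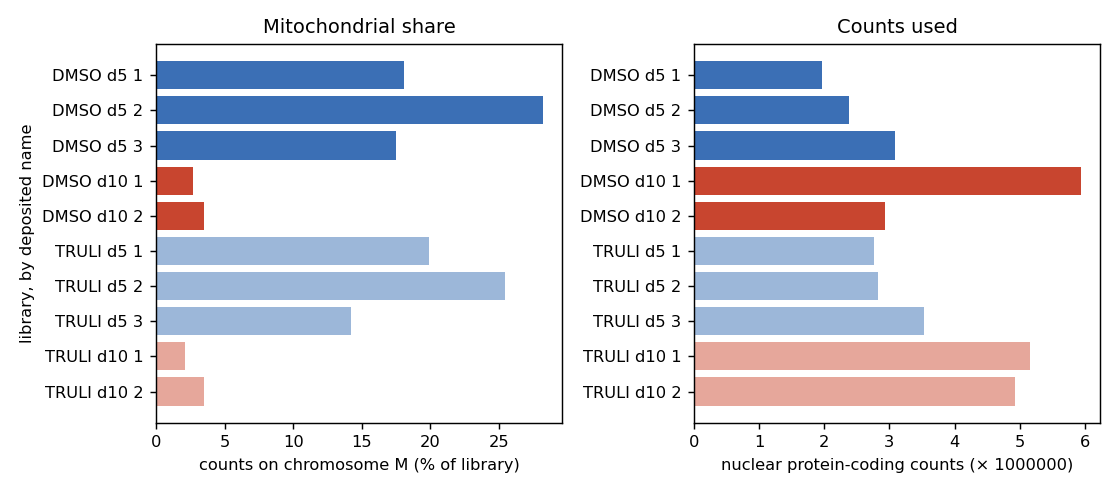
Share of each library's counts on chromosome M (left, percent) and its nuclear protein-coding counts (right) for the 10 libraries by deposited name, 1 bar a library. The 4 libraries named for day 10 hold between 2.09% and 3.52% on chromosome M and the 6 named for day 5 between 14.2% and 28.2%.

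Many genes differed between the day-10-named libraries and the controls. Of 10881 protein-coding genes that passed the filter on low counts, 1234 were called higher and 889 lower by edgeR's quasi-likelihood test, at a log2 fold change over 1 in size and a p under 0.05 after Benjamini-Hochberg adjustment. These are 11.3% and 8.17% of the tested genes, 19.5% in all, and the shares against which the counts of each gene list below are to be read. DESeq2 called 1417 higher and 1266 lower. The median log2 fold change of all tested genes was -0.02, with an SD of 1.35 across genes. The 2 and 3 libraries did not overlap in CPM for 54.7% of the tested genes, and for 2115 of the 2123 called genes.

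The calls rested heavily on the 3 control libraries. With control replicate 2 left out, edgeR called 0 genes in either direction, although 2811 had an unadjusted p under 0.05, and DESeq2 on the same 4 libraries called 858 higher and 556 lower. With control replicate 1 left out edgeR called 335 genes higher (3.14% of those tested) and 164 lower (1.54%), and with control replicate 3 left out 440 (4.2%) and 239 (2.28%). Without day-10-named replicate 2, the library farthest from the controls, the counts were 998 (8.83%) and 711 (6.29%), and without replicate 1 they were 1921 (17%) and 2038 (18%).

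The called genes followed the deposited day in the TRULI-named libraries as well. All 4 libraries named for day 10 lay above all 6 named for day 5 for 13.8% of the tested genes and below them for 12% of the tested genes. Among the genes called higher, 914 (74.1%) had the 4 libraries above the 6, and among those called lower 563 (63.3%) had them below. The comparison of the 2 and 3 libraries is part of that of the 4 and 6, so the larger shares among called genes are a description.

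**Figure D2:**
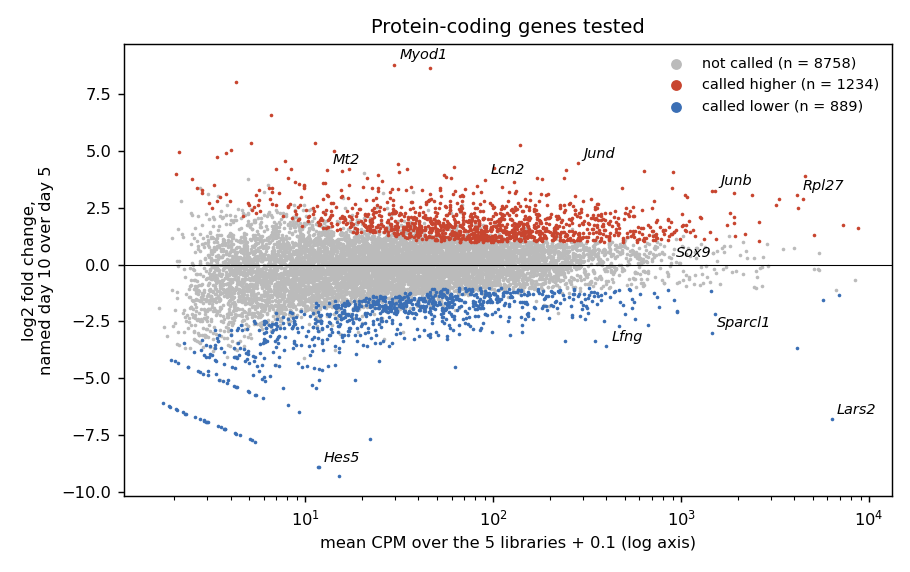
Log2 fold change of the day-10-named libraries over the day-5 controls against mean CPM over the 5 libraries plus 0.1 (log axis), 1 point for each of 10881 tested genes. The 1234 genes called higher are red and the 889 called lower blue, and genes at 0 counts in both day-10-named libraries form the diagonal lines at the lower left.

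Of the genes that mark supporting cells more were called lower than higher, among them Lfng and Hes5, while the supporting-cell transcription factors Sox9 and Sox2 did not pass the test. All 28 genes of the supporting-cell list were tested: 9 were called lower, 2 higher and 17 neither, with a median log2 fold change of -0.46. Sox9, a transcription factor of supporting cells and their progenitors, was at 722, 899 and 981 CPM in the controls and 964 and 847 CPM in the day-10-named libraries. These ranges overlapped, and the log2 fold change was 0.09 ± 0.27 (SE; edgeR, adjusted p = 0.835). Sox2, which is needed for supporting-cell fate, was at 105, 86.7 and 63.2 CPM against 55.6 and 43 CPM, a log2 difference of -0.76 ± 0.35 (SE) that did not pass the test (edgeR, adjusted p = 0.146). Here and below, fewer cells of a type and less RNA per cell cannot be told apart.

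Lfng itself, the gene whose reporter defined the sort, was lower. It lies at chr5:140607320-140615545 (GRCm38, GENCODE M21) and was at 663, 616 and 611 CPM in the controls and 75.1 and 25.6 CPM in the day-10-named libraries. The controls lay close together and far above both other libraries, and the log2 fold change was -3.60 ± 0.46 (SE; edgeR, adjusted p = 0.00505). In the other libraries Lfng was at 366, 648 and 353 CPM in those named TRULI at day 5 and at 121 and 79.7 CPM in those named TRULI at day 10. The 4 libraries named for day 10 were thus the 4 lowest.

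Hes5, the Notch target at chr4:154960923-154962371, was at 31, 10.2 and 16.8 CPM in the controls and had 0 counts in both day-10-named libraries. Against the floor of 3 counts a library, which corresponds to 0.552 and 1.3 CPM there, it was at least 20.9-fold lower (edgeR, adjusted p = 0.00731). The Notch list of 21 tested genes did not move in 1 direction: 4 members were called higher and 4 lower, with a median log2 fold change of -0.19. Rbpj, the DNA-binding partner of activated Notch, was at 95.9, 142 and 138 CPM against 518 and 896 CPM, and Notch3, a receptor, at 54.5, 35.3 and 71 CPM against 211 and 402 CPM. Both rose, with log2 fold changes of 2.52 ± 0.33 and 2.54 ± 0.39 (SE; edgeR, adjusted p = 0.00505 and 0.00731). Hey1, a further Notch-responsive repressor that was chosen after its values were seen, was at 402, 371 and 584 CPM against 1084 and 738 CPM, and it was called higher (log2 fold change 1.03 ± 0.31 SE; edgeR, adjusted p = 0.0434).

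Several genes for the matrices over the epithelium were lower. Of 9 tested genes of the otoconial and tectorial list 4 were called lower, 1 higher and 4 neither, with a median log2 fold change of -1.12. Sparcl1, a matrix glycoprotein of supporting cells and of otoconia, was at 2249, 1757 and 2705 CPM against 359 and 193 CPM, and fell by 2.99 ± 0.39 on the log2 scale (SE; edgeR, adjusted p = 0.00505). Otoa, which anchors acellular gels to supporting cells, was at 749, 523 and 921 CPM against 216 and 102 CPM, and Otogl, a related gel protein, at 116, 69.5 and 89 CPM against 18.2 and 27.8 CPM. Neither gene's groups overlapped, and both were called lower (log2 fold changes -2.17 ± 0.41 and -1.98 ± 0.39 SE; edgeR, adjusted p = 0.0118 and 0.0137). The member called higher was Otop1, a proton channel required for otoconia, at 171, 148 and 178 CPM against 569 and 1022 CPM, with a log2 fold change of 2.29 ± 0.31 (SE) (edgeR, adjusted p = 0.00546).

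Cdkn1b, which encodes a cyclin-dependent kinase inhibitor, was at 23.5, 18.1 and 30.6 CPM against 2.76 and 0.434 CPM, and was called lower by edgeR (log2 fold change -3.67 ± 0.70 SE, adjusted p = 0.0122). Id1, a helix-loop-helix repressor downstream of BMP signalling, moved the other way, at 71.9, 193 and 306 CPM against 824 and 795 CPM (edgeR, log2 fold change 2.11 ± 0.48 SE, adjusted p = 0.0196). Both genes are on the supporting-cell list and were chosen after their values were seen.

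**Figure D3:**
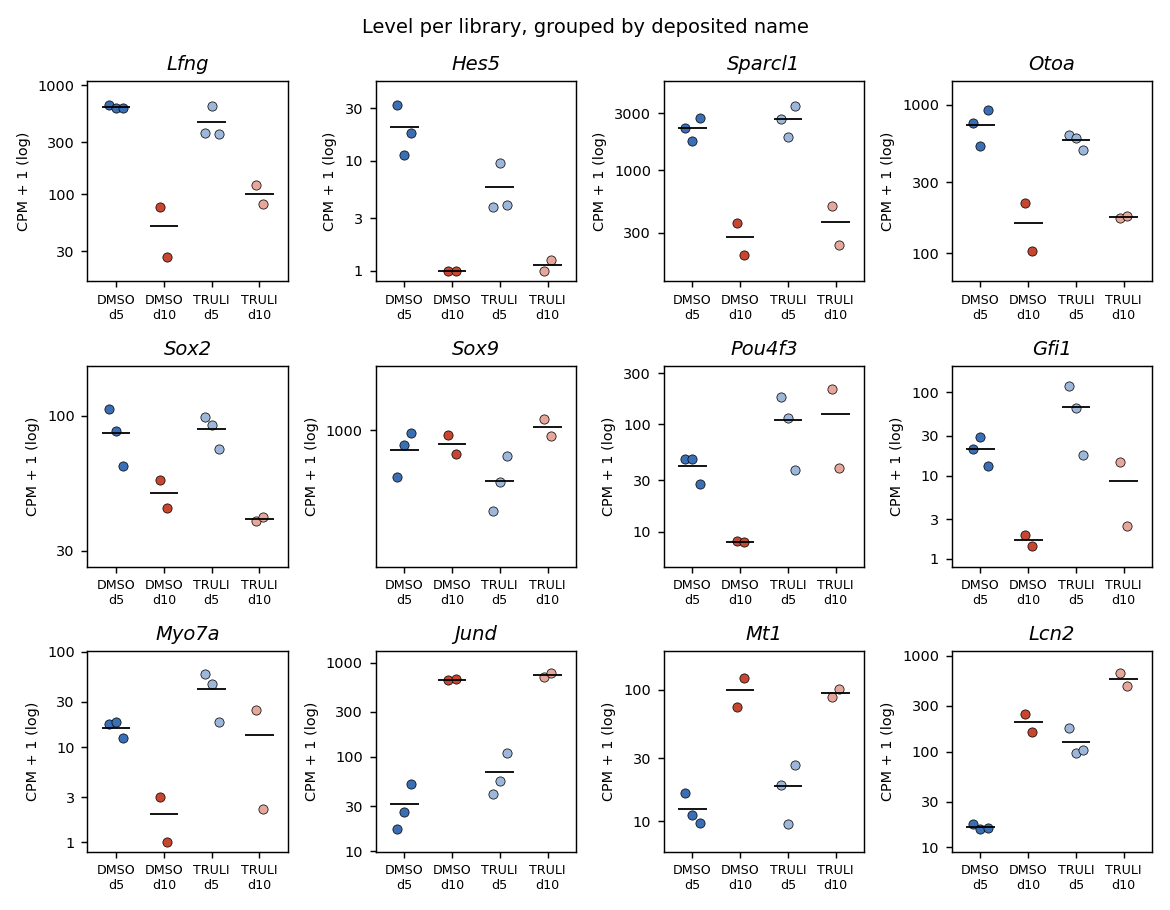
CPM + 1 (log axis) of 12 genes in the 10 libraries, grouped by deposited name, with 1 point a library and a line at the group mean. Lfng, Hes5, Sparcl1 and Otoa are lower, and Jund, Mt1 and Lcn2 higher, in both day-10-named control libraries than in the 3 day-5 controls, while Sox9 overlaps.

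Many hair-cell genes were lower. Of 37 listed genes 28 passed the filter, and 15 of these were called lower, 1 higher and 12 neither. The median log2 fold change of the 28 was -2.64, or -2.43 with the member at 0 in both day-10-named libraries set to its bound. The hair-cell transcription factors were already low in the controls: Pou4f3 was at 46.5, 46.7 and 27 CPM, Gfi1 at 19.7, 27.9 and 12 CPM and Atoh1 at 21.2, 2.75 and 6.89 CPM. In the day-10-named libraries Pou4f3 was at 7.18 and 6.94 CPM, Gfi1 at 0.92 and 0.434 CPM and Atoh1 at 2.94 and 2.17 CPM. Pou4f3 and Gfi1 were called lower (log2 fold changes -2.47 ± 0.47 and -4.64 ± 0.74 SE; edgeR, adjusted p = 0.012 and 0.00781). Atoh1, the factor that starts hair-cell differentiation, did not pass the test, with a log2 fold change of -1.93 ± 0.91 (SE; edgeR, adjusted p = 0.156).

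Among structural and calcium-handling hair-cell genes, Myo7a, the hair-bundle myosin, was at 16.5, 17.3 and 11.4 CPM against 2.02 and 0 CPM, and was called lower (log2 fold change -3.55 ± 0.90 SE; edgeR, adjusted p = 0.0266). Calb2, a calcium buffer of vestibular hair cells and neurons, was at 48.4, 25.1 and 16.2 CPM against 0.552 and 1.3 CPM. The day-10-named libraries held 3 counts each, and their summed count was 0.0281 of the control level per unit of depth, with an exact 95% counting interval of 0.0102 to 0.0622 (edgeR, adjusted p = 0.00748). Anxa4, an annexin that is not restricted to hair cells, was the member called higher, at 46.5, 26.3 and 37.1 CPM against 119 and 146 CPM (edgeR, log2 fold change 1.88 ± 0.34 SE, adjusted p = 0.0108). The summed level of the list hardly differed, 863 to 1193 CPM in the controls and 786 and 881 CPM in the day-10-named libraries. Without control replicate 1, 4 members were called lower in place of 15, and 5 without control replicate 3, where 1.54% and 2.28% of all tested genes were called lower in place of 8.17%. The median log2 fold change was then -2.42 and -2.85, and 17 and 16 members were lower at an unadjusted p under 0.05, against 17 with all 5 libraries.

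Genes of the motile cilium, several of which also build the kinocilium of hair cells, followed the same direction. Of 16 tested genes edgeR called 7 lower and 0 higher, with 9 lower and 0 higher at an unadjusted p under 0.05, and DESeq2 called 8 lower and 0 higher. The median log2 fold change was -2.24. Ift88, a subunit of the transport particles that build cilia, was at 40, 38.9 and 33.6 CPM against 8.1 and 12.2 CPM, a log2 fold change of -1.88 ± 0.43 (SE; edgeR, adjusted p = 0.0197). Ccdc40 and Spag6l, components of motile axonemes, had 0 counts in both day-10-named libraries and were at least 6.21-fold and 7.44-fold lower against the 3-count floor. Neuron markers were few, with 4 of 11 tested, and Nefl, a neurofilament, was the member called lower, at 6.11, 5.49 and 3.3 CPM against 0.736 and 0.434 CPM (edgeR, adjusted p = 0.0473).

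More immediate-early genes were higher than lower. Of 22 tested genes 9 were called higher and 2 lower, and the median log2 fold change was 0.93. Jund, an AP-1 subunit at chr8:70698949-70700616, was at 16, 25.1 and 50 CPM in the controls and 658 and 665 CPM in the day-10-named libraries. It was also at 710 and 779 CPM in the TRULI-named day-10 libraries, and at 39.6, 54.4 and 110 CPM in those named TRULI at day 5, so the 4 libraries named for day 10 stood apart from all others. The log2 fold change was 4.46 ± 0.44 (SE; edgeR, adjusted p = 0.00335).

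Junb, a second AP-1 subunit, varied more among the controls, at 122, 219 and 704 CPM, against 4064 and 2481 CPM, and was called higher by 3.26 ± 0.63 (SE) on the log2 scale (edgeR, adjusted p = 0.0128). Ier2 and Klf6, both rapidly induced transcriptional regulators, were at 161, 211 and 297 CPM against 538 and 630 CPM, and at 444, 495 and 587 CPM against 1482 and 1053 CPM, and were called higher (log2 fold changes 1.41 ± 0.31 and 1.34 ± 0.28 SE; edgeR, adjusted p = 0.0172 and 0.0153). Dusp6, a phosphatase that is induced by and restrains ERK, moved the other way, at 1045, 1420 and 1286 CPM against 610 and 223 CPM (edgeR, log2 fold change -1.56 ± 0.42 SE, adjusted p = 0.0328). Hbegf, an EGF-family ligand, was at 25.9, 40.4 and 35 CPM against 134 and 207 CPM, and Erbb3, a neuregulin receptor, was at 407, 588 and 648 CPM against 1467 and 2166 CPM. Both were called higher (log2 fold changes 2.36 ± 0.34 and 1.76 ± 0.31 SE; edgeR, adjusted p = 0.00581 and 0.0104), and of the 22 tested genes of FGF and EGF signalling they were the 2 called higher, with Dusp6 the 1 called lower. The summed level of the immediate-early list was 9464 to 12323 CPM in the controls and 12921 and 20678 CPM in the day-10-named libraries. Without control replicate 1, 2 members were called higher in place of 9, and 6 without control replicate 3, where 3.14% and 4.2% of all tested genes were called higher in place of 11.3%. The median was then 0.93 and 1.02, and 10 and 9 members were higher at an unadjusted p under 0.05, against 10 with all 5 libraries.

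Several detoxification and metal-binding genes were higher. Of 18 tested genes of the Nrf2 and metallothionein list, 7 were called higher and 2 lower, with a median log2 fold change of 0.88. Mt1 and Mt2, whose upstream sequences are shown above, encode small proteins that bind zinc and copper. Mt1 was at 15.5, 10.2 and 8.69 CPM against 73.3 and 122 CPM, a log2 fold change of 3.12 ± 0.41 (SE; edgeR, adjusted p = 0.00522). Mt2 was at 2.35, 0.785 and 1.8 CPM against 17.5 and 42.1 CPM, a log2 fold change of 4.18 ± 0.65 (SE; edgeR, adjusted p = 0.00757). The 2 libraries named TRULI at day 10 held the same range, at 86.6 and 99.5 CPM for Mt1 and 22.1 and 28.2 CPM for Mt2.

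Ephx1, a microsomal epoxide hydrolase, was at 36.7, 27.1 and 30.6 CPM against 142 and 415 CPM, and Gstm1, a glutathione transferase, at 52.7, 25.5 and 29.7 CPM against 145 and 345 CPM. In each gene day-10-named replicate 2 was the higher library, and both genes were called higher (log2 fold changes 3.17 ± 0.44 and 2.80 ± 0.45 SE; edgeR, adjusted p = 0.00567 and 0.00811). Nqo1, a quinone reductase that was chosen after its values were seen, was at 179, 246 and 81.2 CPM against 743 and 961 CPM (edgeR, log2 fold change 2.36 ± 0.42 SE, adjusted p = 0.0106).

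Chaperone genes were called in both directions, in numbers near the shares over all tested genes. Of 16 tested genes of the heat-shock list 3 were called higher and 2 lower, beside 11.3% and 8.17% of all tested genes. Hspa5, the chaperone of the endoplasmic reticulum, was at 2607, 2099 and 1874 CPM against 480 and 465 CPM, and Hspa8, the constitutive cytosolic chaperone, at 1308, 1415 and 1395 CPM against 376 and 259 CPM. Both fell, by 2.19 ± 0.30 and 2.09 ± 0.30 on the log2 scale (SE; edgeR, adjusted p = 0.00548 and 0.00581). Cryab, the small heat-shock protein αB-crystallin, was at 24.5, 41.2 and 51.8 CPM against 129 and 337 CPM, and Hspa1b, a stress-inducible chaperone, at 7.05, 8.63 and 9.29 CPM against 31.1 and 47.7 CPM. They were called higher (log2 fold changes 2.59 ± 0.45 and 2.25 ± 0.42 SE; edgeR, adjusted p = 0.0104 and 0.0118), and Hspa1b shares reads with a near-identical copy, so its own level is uncertain.

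Of the acute-phase and inflammatory genes 11 were tested, with 3 called higher and 2 lower, and 12 of the 35 listed, among them Il6, Saa3 and Cxcl2, had 0 counts in all 5 libraries. Lcn2, an iron-scavenging lipocalin released by stressed epithelia, was at 16.5, 14.5 and 15 CPM against 248 and 158 CPM, a log2 fold change of 3.75 ± 0.33 (SE; edgeR, adjusted p = 0.0029). It was at 176, 95.3 and 102 CPM in the TRULI-named day-5 libraries and at 657 and 484 CPM in those named TRULI at day 10, so the day-5 controls were the lowest of the 4 named groups. Nfkbia, the feedback inhibitor of NF-κB, was at 40.9, 22.4 and 32.7 CPM against 176 and 218 CPM (edgeR, log2 fold change 2.65 ± 0.34 SE, adjusted p = 0.00505), and C4b, a complement component, at 10.8, 5.49 and 16.8 CPM against 1.1 and 0.434 CPM (edgeR, log2 fold change -3.63 ± 0.85 SE, adjusted p = 0.0211). Timp1, a protease inhibitor often induced with them, was at 1.41, 4.71 and 1.2 CPM against 7.73 and 12.6 CPM, and did not pass the test (edgeR, log2 fold change 2.06 ± 0.76 SE, adjusted p = 0.0837). Of 13 tested interferon-response genes only Irf9 was called, at 70.5, 74.6 and 77.6 CPM against 190 and 316 CPM (edgeR, log2 fold change 1.79 ± 0.30 SE, adjusted p = 0.00929). Of 15 tested p53 targets edgeR called 3 higher and 0 lower, with 5 and 0 at an unadjusted p under 0.05, and DESeq2 called 4 and 0. Ccng1, a cyclin induced by p53, was at 103, 195 and 145 CPM against 466 and 752 CPM (log2 fold change 2.07 ± 0.34 SE, adjusted p = 0.00875).

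Most genes of the G2 and M phases were too low to be tested. Of 50 listed genes of the G2 and M phases 12 passed the filter, with 1 called higher and 1 lower, and of 43 S-phase genes 28 passed, with 3 called higher and 0 lower by edgeR. At an unadjusted p under 0.05, 6 S-phase genes were higher and 5 lower, and DESeq2 called 3 and 2. Mki67, a marker of cycling cells, was at 0, 1.96 and 0.899 CPM in the controls and 0.552 and 0 CPM in the day-10-named libraries, at or near the floor of 3 counts, and was not tested. E2f1, the G1-to-S transcription factor, was at 0.94, 0.785 and 2.1 CPM against 14.4 and 13.5 CPM, and was called higher (edgeR, log2 fold change 3.38 ± 0.67 SE, adjusted p = 0.0139).

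Targets of the coactivator Yap, which Lats kinases restrain, showed no common direction. Of 19 tested genes 1 was called higher and 1 lower, with a median log2 fold change of 0.05. Ccn1, a matricellular Yap target, was at 449, 325 and 493 CPM against 136 and 75.9 CPM, and was called lower by 1.97 ± 0.36 (SE; edgeR, adjusted p = 0.0111, log2 scale). Ccn2, its close relative, was at 18.3, 10.6 and 14.1 CPM against 2.39 and 7.81 CPM, a log2 fold change of -1.53 ± 0.67 (SE) that did not pass the test (edgeR, adjusted p = 0.13). In the libraries named TRULI at day 5, Ccn2 was at 839, 578 and 587 CPM. Ajuba, a scaffold that inhibits Lats and is itself a Yap target, was at 11.3, 12.2 and 15 CPM against 8.1 and 11.7 CPM (edgeR, log2 fold change -0.36 ± 0.50 SE, adjusted p = 0.63), and at 168, 102 and 89 CPM in the TRULI-named day-5 libraries. By their sample labels, the 2 day-10-named libraries are TRULI-treated replicates of the first of those 3 libraries, which held Ccn2 at 839 CPM and Ajuba at 168 CPM. These levels are given as measured and were not used to assign any library.

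**Figure D4:**
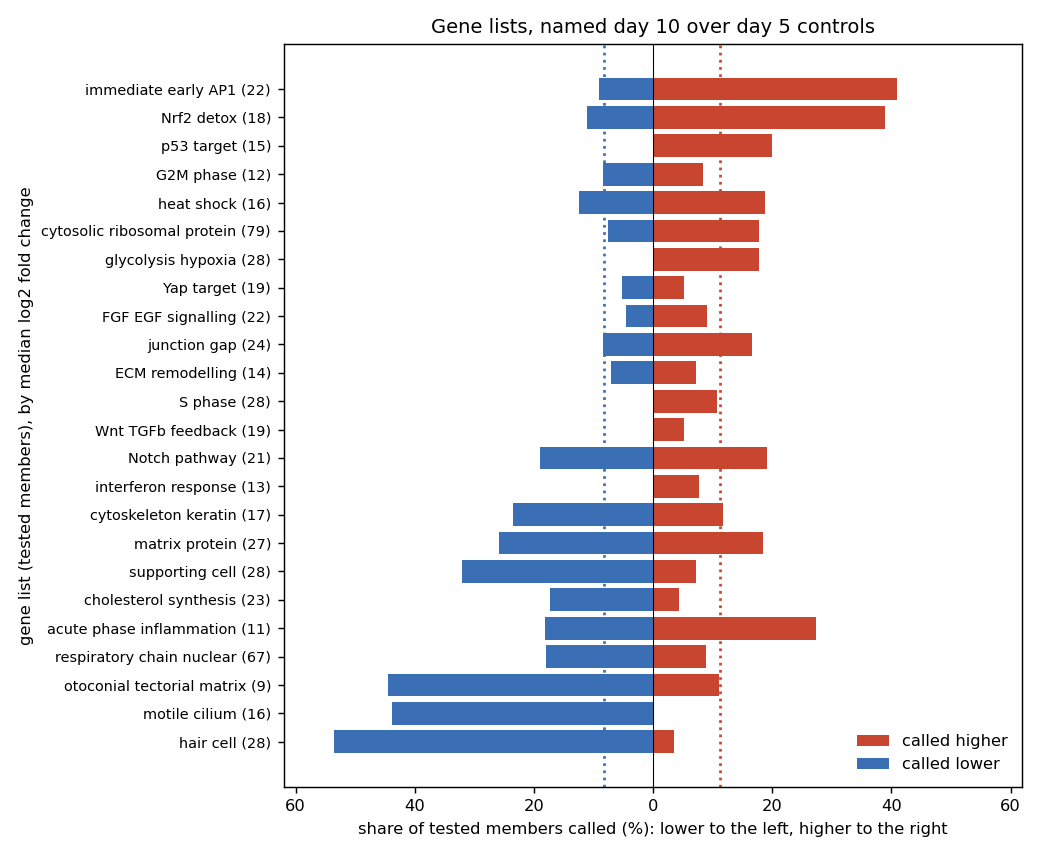
Share of the tested members of each gene list called higher (red, to the right) or lower (blue, to the left) in the day-10-named libraries over the day-5 controls, in percent, for lists with at least 9 tested members. Dotted lines mark the shares over all tested genes, 11.3% higher and 8.17% lower, and the hair-cell list, with 15 of 28 called lower, reaches farthest to the left.

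Cytosolic ribosomal protein genes and nuclear genes of the respiratory chain usually keep close ratios within each group. Here they scattered about as widely as all tested genes, whose log2 fold changes had an SD of 1.35. All 79 ribosomal protein genes were tested: 14 were called higher, 6 lower and 59 neither. Their log2 fold changes ran from -2.06 to 3.07, with a median of 0.34 and an SD of 1.18 across genes. Rpl27 was at 793, 1419 and 977 CPM against 4140 and 13328 CPM, and Rplp1 at 211, 296 and 301 CPM against 1039 and 3361 CPM. Both were called higher (log2 fold changes 3.07 ± 0.48 and 3.06 ± 0.46 SE; edgeR, adjusted p = 0.00761 and 0.00652), and in each gene day-10-named replicate 2 was the highest of the 5 libraries. The summed level of the list was 9744 to 14017 CPM in the controls, and 14785 and 36185 CPM in the day-10-named libraries. Without day-10-named replicate 2 the median turned to -0.22, so the direction of the group depends on that library. Ribosomal protein genes have many near-identical pseudogenes, and how reads were shared among them is not given in the sources used here.

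Of 67 tested nuclear respiratory-chain genes 6 were called higher, 12 lower and 49 neither, with a median log2 fold change of -0.64 and an SD of 1.30. Uqcrh, a complex III subunit, was at 130, 167 and 99.2 CPM against 31.8 and 26 CPM, and Sdhd, a complex II subunit, at 105, 126 and 82.7 CPM against 18.4 and 28.6 CPM. Both fell, by 2.16 ± 0.35 and 2.14 ± 0.38 on the log2 scale (SE; edgeR, adjusted p = 0.00851 and 0.0104). Ndufb11, a complex I subunit, rose from 59.2, 78.5 and 78.2 CPM to 280 and 863 CPM (edgeR, log2 fold change 3.01 ± 0.44 SE, adjusted p = 0.00647).

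**Figure D5:**
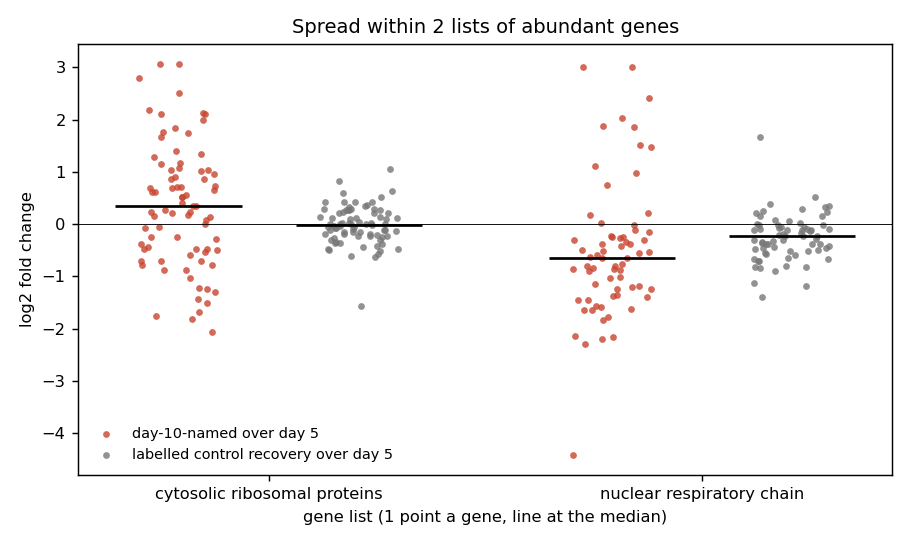
Log2 fold changes of cytosolic ribosomal protein genes (79) and nuclear respiratory-chain genes (67 by deposited name, 69 by label), 1 point a gene with a line at the median. Red points compare the day-10-named libraries with the day-5 controls and span -2.06 to 3.07 for ribosomal proteins, and grey points compare the libraries labelled as control recovery with the same controls.

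Lars2, the mitochondrial leucyl-tRNA synthetase at chr9:123366927-123462666, was the most abundant of the 10 genes named for the largest decreases. It was at 13760, 11183 and 6452 CPM in the controls and 111 and 69.9 CPM in the day-10-named libraries, a log2 fold change of -6.82 ± 0.53 (SE; edgeR, adjusted p = 0.00175). It was at 8246, 8541 and 4848 CPM in the TRULI-named day-5 libraries and at 131 and 122 CPM in those named TRULI at day 10. The mitochondrial 16S ribosomal RNA mt-Rnr2 took 16.8%, 26.4% and 16.2% of all counts in the controls and 1.99% and 2.53% in the day-10-named libraries, so both dropped in the same libraries. Whether reads of mt-Rnr2 were counted at Lars2 was not tested.

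Genes of the epithelial barrier and the cytoskeleton were called in both directions. Of 24 tested junction genes 4 were called higher and 2 lower, beside 11.3% and 8.17% of all tested genes. These counts lie near those shares and do not set the list apart. Among the called genes were claudins, the sealing proteins of tight junctions. Cldn7 was at 473, 520 and 705 CPM against 1807 and 2858 CPM, and Cldn6 at 41.8, 28.3 and 48.8 CPM against 138 and 116 CPM. Both rose (log2 fold changes 2.07 ± 0.31 and 1.70 ± 0.33 SE; edgeR, adjusted p = 0.00697 and 0.0129), while Cldn9, at 319, 253 and 396 CPM against 138 and 83.8 CPM, fell by 1.51 ± 0.34 on the log2 scale (SE; edgeR, adjusted p = 0.0192).

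Of 17 tested cytoskeleton and keratin genes 4 were called lower and 2 higher. Vim, the intermediate filament vimentin, was at 163, 706 and 760 CPM against 56.3 and 45.1 CPM, and control replicate 1 stood well below the other controls. Tuba1a, an α-tubulin, was at 376, 514 and 495 CPM against 145 and 64.7 CPM, and Actg1, cytoplasmic γ-actin, at 10413, 9339 and 7704 CPM against 3892 and 3248 CPM. The 3 genes fell by 3.38 ± 0.63, 2.11 ± 0.39 and 1.33 ± 0.30 on the log2 scale (SE; edgeR, adjusted p = 0.0115, 0.0114 and 0.0192). Vcl, the adhesion protein vinculin, was called higher, at 41.8, 56.1 and 146 CPM against 214 and 552 CPM (edgeR, log2 fold change 2.25 ± 0.55 SE, adjusted p = 0.0245).

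Matrix genes changed in both directions. Of 27 tested matrix protein genes 5 were called higher and 7 lower, with a median log2 fold change of -0.31. Collagens II, IX and XI, which form fibrils in cartilage and in the tectorial membrane, have 6 genes on the list, and 5 of them (Col2a1, Col9a1, Col9a3, Col11a1 and Col11a2, chosen after their values were seen) were among those called lower. Col9a1 was at 155, 239 and 279 CPM against 63.7 and 27.3 CPM, and Col11a1 at 230, 295 and 359 CPM against 124 and 69 CPM (log2 fold changes -2.26 ± 0.43 and -1.58 ± 0.35 SE; edgeR, adjusted p = 0.0126 and 0.0189). Among those called higher, Col6a1, a microfibrillar collagen, was at 23, 22.8 and 26.4 CPM against 180 and 88.5 CPM, and Col18a1, a collagen of basement membranes, at 47.5, 40.8 and 57.8 CPM against 137 and 220 CPM (log2 fold changes 2.50 ± 0.37 and 1.90 ± 0.33 SE; edgeR, adjusted p = 0.00647 and 0.00983). Lamb1, a laminin subunit of basement membranes, was at 35.7, 14.5 and 21.3 CPM against 1.47 and 1.74 CPM and was called lower (edgeR, log2 fold change -3.86 ± 0.66 SE, adjusted p = 0.00961).

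Among metabolic genes, 4 of 23 tested genes of cholesterol synthesis were called lower and 1 higher. Cyp51, a demethylase of the pathway, was at 86.5, 73 and 52.7 CPM against 17.3 and 10.8 CPM (edgeR, log2 fold change -2.28 ± 0.42 SE, adjusted p = 0.0111), and Srebf2, the transcription factor that drives the pathway, was the member called higher, at 132, 156 and 285 CPM against 453 and 676 CPM (edgeR, log2 fold change 1.59 ± 0.37 SE, adjusted p = 0.0205). Of 28 tested glycolysis and hypoxia genes edgeR and DESeq2 each called 5 higher and 0 lower, and at an unadjusted p under 0.05 edgeR had 9 higher and 1 lower. The controls themselves were not alike in this list, with summed levels from 9613 to 32079 CPM against 25882 and 28597 CPM. Ero1l, a hypoxia-responsive oxidase of the endoplasmic reticulum, was at 1143, 86 and 170 CPM in control replicates 1 to 3 and at 2820 and 5388 CPM, and Slc2a1, a glucose transporter, at 229, 156 and 280 CPM against 428 and 477 CPM (log2 fold changes 3.16 ± 0.90 and 1.06 ± 0.30 SE; edgeR, adjusted p = 0.039 and 0.0397). Without control replicate 3 edgeR called 0 members, with 6 higher at an unadjusted p under 0.05. Without control replicate 1 it called 6 higher and 0 lower, with 15 higher and 0 lower at an unadjusted p under 0.05. The size of the difference in this list thus depends on which control is left out.

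Several of these counts fell when a control library was left out, as did the calls over all genes. With control replicate 1 left out, edgeR called 2 genes of the motile cilium lower in place of 7, 3 of the respiratory chain in place of 12, 2 of the cytoskeleton in place of 4 and 2 of the Notch list in place of 4, and 1.54% of all tested genes in place of 8.17%. At an unadjusted p under 0.05 the lower members were 5 in place of 9, 16 in place of 21, 5 in place of 5 and 7 in place of 7. With control replicate 3 left out, it called 3 motile-cilium, 6 respiratory-chain, 2 matrix protein and 2 Notch genes lower, beside 2.28% of all tested genes. At an unadjusted p under 0.05 these were 7, 23, 8 and 6 genes, with 9 matrix protein genes when all 5 libraries were used. Either omission left 4 ribosomal protein genes called higher in place of 14, with 15 in each at an unadjusted p under 0.05 in place of 24, and 1 p53 target in place of 3, with 3 and 4 in place of 5. Without control replicate 1, 1 junction gene and 1 heat-shock gene were called higher, beside 3.14% of all tested genes, with 4 and 3 at an unadjusted p under 0.05 in place of 5 and 4. In the same setting 0 cholesterol genes were called lower, with 5 lower at an unadjusted p under 0.05 in place of 6. Without day-10-named replicate 1 the median log2 fold change of the ribosomal protein genes was 0.64.

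Of the markers of other cell types that a gate could admit, those of macrophages, endothelium and erythroid cells were near the floor, and the other lists held more counts. Of 16 macrophage and immune markers 1 passed the filter and 10 had 0 counts in all 5 libraries, among them Adgre1, Aif1 and C1qa, and the summed level of the list was 1.5 to 3.53 CPM in the controls and 6.81 and 8.25 CPM in the day-10-named libraries. Of 10 endothelial markers none passed, and Cdh5, Kdr and Cldn5 had 0 counts in all 5 libraries. Of 6 erythroid markers none passed, and 5 had 0 counts in all 5 libraries. The 16 fibroblast markers summed to 48.4 to 75.8 CPM against 145 and 243 CPM, with Col6a1 the largest difference among the 3 tested. The 10 Schwann-cell and glial markers summed to 784 to 1163 CPM against 2776 and 2846 CPM, most of it Erbb3 and Egr2. Of 7 melanocyte markers 3 were tested, and Dct, Tyr, Tyrp1 and Mlana had 0 counts in all 5 libraries, while Mitf was at 6.11, 6.67 and 6.89 CPM against 37.9 and 56.9 CPM (edgeR, log2 fold change 2.86 ± 0.42 SE, adjusted p = 0.00647). The other tested members had the opposite sign: Kit, a receptor of melanocytes and other cells, was at 83.2, 64.4 and 111 CPM against 41.2 and 16.5 CPM, and Pmel, a melanosome protein, at 11.3, 10.6 and 13.8 CPM against 4.79 and 0.434 CPM. Kit was called lower and Pmel was not (log2 fold changes -1.53 ± 0.45 and -2.01 ± 0.80 SE; edgeR, adjusted p = 0.0438 and 0.102). The log2 fold change of Kit was -1.04 without day-10-named replicate 2, and Kit was not called with any 1 control left out (edgeR, adjusted p = 0.102 to 0.137). The log2 fold change of Pmel was -4.62 without day-10-named replicate 1, a fit with 1 library in that group. The median of the 3 was -1.53, and the list summed to 81.6 to 132 CPM in the controls and 73.8 to 83.9 CPM in the day-10-named libraries. The 11 neuron markers summed to 88.4 to 107 CPM against 32.5 and 48.2 CPM. Of 10 markers of dark and transitional cells 5 were tested and edgeR called 0, with 1 lower at an unadjusted p under 0.05 and 1 called lower by DESeq2, and the list summed to 675 to 716 CPM against 656 and 685 CPM.

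Myod1, the master transcription factor of skeletal muscle at chr7:46376474-46379099, had the largest increase of any gene named here. It was at 0.47, 0 and 0 CPM in the controls, 1 count in all, and at 40.1 and 108 CPM in the day-10-named libraries. The ratio of the summed counts per unit of depth was 483, with an exact 95% counting interval of 86.2 to 19102 (edgeR, adjusted p = 0.00335). It was at 17.5 and 58.1 CPM in the TRULI-named day-10 libraries and at 0.31, 0 and 0 CPM in those named TRULI at day 5. Other muscle markers did not accompany it: Myog, Acta1, Actc1 and Tnnt3 had 0 counts in all 5 libraries, and Ttn was at 4.23, 1.96 and 1.5 CPM against 2.39 and 7.81 CPM.

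Several further genes were named by the size of their change alone. Atxn7l2, a relative of a chromatin-complex subunit, was at 9.4, 12.2 and 15.3 CPM against 167 and 298 CPM, and H2afx, the histone variant phosphorylated at DNA breaks, at 3.29, 5.1 and 4.49 CPM against 45.1 and 115 CPM (log2 fold changes 4.25 ± 0.38 and 4.22 ± 0.51 SE; edgeR, adjusted p = 0.0029 and 0.00499). Rem2, a small GTPase, was at 12.2, 10.6 and 3.89 CPM against 118 and 547 CPM (edgeR, log2 fold change 5.28 ± 0.69 SE, adjusted p = 0.00511). Adnp, a homeobox chromatin factor, rested on replicate 2, at 0, 0 and 0.599 CPM against 9.02 and 220 CPM. Among the decreases, Ift74, an intraflagellar transport protein, was at 15, 28.7 and 12.3 CPM against 0.368 and 0.434 CPM, a ratio of summed counts of 0.0213 with an exact 95% counting interval of 0.00434 to 0.0634. Ccdc9b, a coiled-coil protein, was at 25.4, 17.3 and 14.4 CPM against 0.92 and 0.434 CPM (edgeR, log2 fold change -4.58 ± 0.71 SE, adjusted p = 0.00748).

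When the controls at day 10 were taken from the sample labels instead, the same 3 day-5 controls were compared with the 2 libraries labelled as DMSO for 5 days and recovery for 5 days. Of 11286 tested genes 246 (2.18%) were called higher and 64 (0.567%) lower. The comparisons share their controls, so their values are set side by side and not compared by overlap. Lfng had a log2 fold change of -0.32 (edgeR, adjusted p = 0.658) by label and -3.60 by name, Sparcl1 0.25 (adjusted p = 0.754) and -2.99, and Jund 1.42 (adjusted p = 0.113) and 4.46. Lcn2 was called higher in each, by 2.69 (edgeR, adjusted p = 0.000352) and 3.75.

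By label the lists that moved were others. Of 49 tested genes of the G2 and M phases edgeR called 37 higher and 0 lower, and of 42 S-phase genes 19 higher and 0 lower. At an unadjusted p under 0.05 these were 44 and 0, and 30 and 0, and DESeq2 called 39 and 0, and 22 and 0. Mki67 was at 150 and 68.6 CPM in the libraries labelled as control recovery and at 0 to 1.96 CPM in the 3 controls (edgeR, log2 fold change 6.73, adjusted p = 0.000206). Ccn2 and Ajuba had log2 fold changes of 5.35 and 2.89 (edgeR, adjusted p = 8.83e-06 and 0.000306). By name these 2 libraries are TRULI-treated. Of 79 ribosomal protein genes edgeR and DESeq2 called 0 by label, with 2 higher and 1 lower at an unadjusted p under 0.05 in edgeR. The SD of their log2 fold changes was 0.37, against 1.18 by name. Over all tested genes the SD was 0.90 by label and 1.35 by name. Of 28 hair-cell genes edgeR and DESeq2 called 0 in either direction by label, with 7 higher and 0 lower at an unadjusted p under 0.05 in edgeR.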

How the data were processed

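The authors sorted EGFP-positive supporting cells from cultured utricles, mapped reads with STAR to GRCm38 and deposited, for each library, a table of expected counts and effective lengths per gene; the counting program is not given in the sources used here. Methods and labels differ on the library kit, the latter giving poly(A) enrichment. Rounded counts were used. Of 48709 genes 48349 matched GENCODE M21, and the 21682 nuclear protein-coding genes were analysed. Groups followed the deposited names, with a second comparison by sample label. The methods call the replicates biological; where they share cultures, p-values measure only the spread between libraries.

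Genes were filtered with filterByExpr, scaled by TMM and tested with edgeR 4.0.16 (R 4.3.3), quasi-likelihood, in the libraries of each comparison alone. A called gene had a log2 fold change over 1 in size and an adjusted p under 0.05. The test returns no SE, so each SE is the size of the log2 fold change divided by the square root of its F statistic. A floor of 3 counts corresponds to 0.552 to 1.41 CPM in the 5 libraries, and intervals and floors cover counting error only. No libraries were duplicates: chi-square per degree of freedom was at least 12.4 over 45 pairs.

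The members and the 34 gene lists were chosen with earlier results of these data known. Named genes were the 10 largest increases and the 10 largest decreases among called genes with no overlap and a mean of at least 10 CPM, up to 4 members of each list with the lowest p, and 16 genes fixed by name; others are marked, and some genes are not reported here. DESeq2 1.42.0, its size factors, no filter, a replicate block, all 10 libraries in one fit, every biotype, chromosome M in the totals, effective-length offsets and leaving out each library were alternatives. The code was tested on simulated counts. Promoter windows came from RefSeq for GRCm38.p6. Overlapping genes and paralogs can share reads.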

Additional observations from a re-analysis of the deposited data

How the results depend on the processing

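By deposited name, the counts of 1234 genes called higher and 889 lower were between 1010 and 1611 higher and 754 and 1266 lower with DESeq2, its size factors, no filter on low counts, all 10 libraries in one fit, every biotype, chromosome M in the totals or effective lengths as offsets. Leaving out 1 library gave 0 to 1921 higher and 0 to 2038 lower. DESeq2 without control replicate 2, an alternative chosen after seeing the data, gave 858 higher and 556 lower. With the replicate number as a block, 715 were called higher and 443 lower. Deviations of same-numbered libraries from their group means correlated at 0.0281 and 0.0492 over 8473 genes. With only 2 day-10-named libraries, their deviations mirror each other, so these are not separate checks. They cannot settle whether same-numbered libraries are pairs, and the main fit took none.

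By sample label, the counts of 246 higher and 64 lower became 555 and 202 with no filter, 427 and 228 with the replicate block, and 4 and 0 with all 10 libraries in one fit, where 663 genes had an unadjusted p under 0.05. With DESeq2, in the libraries of this comparison alone, 334 were called higher and 148 lower. Leaving out 1 library gave 142 to 262 higher and 16 to 72 lower, with 147 and 16 without control replicate 2, and 35 and 20 lower without replicates 1 and 2 of the libraries labelled as recovery. Without the second of these, 142 were called higher.

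Of 81 named genes called by deposited name, 71 were called the same way in every alternative that kept the 5 libraries. Without control replicate 2 edgeR called 0 genes, so it called 0 of these in every alternative. None changed direction, but most were named by p or size of change in this same fit. Among all called genes 2115 of 2123 did not overlap between the groups, so an unchanged direction was largely fixed in advance. Sox9, which was not called, ran from -0.03 to 0.18 with 1 library left out, below 0 without control replicate 1 or day-10-named replicate 1 (-0.02), and Ttn from -0.04, without day-10-named replicate 2, to 1.63. Of 32 lists with a tested member, 13 had a median that changed sign under some alternative. Among those with a median given above, these are the ribosomal proteins, the Notch list (0.03 with the block and 0.07 without control replicate 3) and the Yap targets (down to -0.26 with no filter). Median log2 fold changes in 5 bins of transcript GC content ran from -0.10 to 0.06. Values at or under the 3-count floor cannot show a difference at this depth.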

Other observations

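Genes of further lists showed few calls. Of 14 tested genes of matrix remodelling 1 was called higher and 1 lower by edgeR. Loxl1, a lysyl oxidase that crosslinks elastin, was at 75.7, 42.4 and 72.8 CPM in the day-5 controls against 171 and 282 CPM in the day-10-named libraries (edgeR, log2 fold change 1.85 ± 0.36 SE, adjusted p = 0.0128), and Mmp14, a membrane-bound metalloproteinase, at 114, 94.6 and 160 CPM against 49.5 and 13.9 CPM (edgeR, log2 fold change -1.90 ± 0.52 SE, adjusted p = 0.0335). Of 19 tested genes of Wnt and TGF-β feedback edgeR called 1 higher and 0 lower, with 3 higher and 1 lower at an unadjusted p under 0.05, and DESeq2 called 2 and 1. The member called higher was Smad7, an inhibitor of TGF-β signalling, at 23.5, 16.1 and 27.3 CPM against 81.9 and 93.7 CPM (edgeR, log2 fold change 2.00 ± 0.35 SE, adjusted p = 0.0104). Of 50 replication-dependent histone genes with an entry, 4 were tested, and edgeR and DESeq2 called 0, with 0 also at an unadjusted p under 0.05 in edgeR, while 25 had 0 counts in all 5 libraries.

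The remaining genes fixed by name gave these values. Amotl2, an angiomotin and Yap target, was at 21.6, 17.3 and 21.6 CPM in the day-5 controls against 11 and 3.04 CPM (edgeR, log2 fold change -1.43 ± 0.59 SE, adjusted p = 0.111). Myc, the growth-promoting transcription factor, was at 0.94, 4.32 and 5.09 CPM against 8.28 and 6.51 CPM, and at 31.9, 30.6 and 31.7 CPM in the TRULI-named day-5 libraries. Serpina3n, an acute-phase protease inhibitor, was at 6.58, 22.4 and 26.4 CPM against 11.4 and 6.51 CPM. Neither Myc nor Serpina3n passed edgeR's test in the day-10-named libraries (adjusted p = 0.312 and 0.279).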
